A study of Mus musculus with 8 samples.

Results

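Tcea3, Gpr141, Galnt9, Arhgef37 and Itga1 are 5 of the 23997 genes in an RNA-seq expression matrix of leukemic mouse bone marrow. They were selected on measured values: in each of them the libraries of marrow carrying AML1-ETO9a together with Meis2 lay apart from all other libraries. Their levels in that marrow are therefore given as a description, with no test of the difference that selected them. Values are FPKM (fragments scaled to the length of the transcript and to the mapped fragments of the library), so levels of different genes can be set side by side per unit of length.

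AML1-ETO, also called RUNX1-RUNX1T1, is the fusion protein of the t(8;21) translocation in acute myeloid leukemia, and AML1-ETO9a is its shorter splice form that lacks part of the ETO end. Meis2 encodes a homeodomain protein of the TALE class, which binds DNA with Hox and Pbx partners. Marrow of C57BL/6 mice was taken 4 days after the drug 5-fluorouracil, kept in medium with IL3, IL6 and SCF, and transduced. It was transplanted 48 hours later into lethally irradiated mice, and RNA came from whole marrow of recipients that had died of leukemia. The 3 groups were AML1-ETO plus Meis2 (AE+Meis2, n = 3, labelled median latency 171 days), AML1-ETO9a plus Meis2 (AE9a+Meis2, n = 3, 102 days) and AML1-ETO9a alone (AE9a, n = 2, 138 days). The sources used here do not give the vector, the species of the transgenes, the donors or the age of the mice. Nothing in the labels says whether the libraries of a group came from separate animals, so p-values measure only the spread between libraries, part of which may be technical. Marrow without a transgene and marrow with Meis2 alone were not analysed here, and recipient cells that outlived irradiation can be part of each sample. In such bulk samples a change in the number of cells of a type and a change in RNA per cell cannot be told apart.

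Meis2 was 13.1, 38.2 and 81.5 FPKM in AE+Meis2 replicates 1 to 3, 621, 604 and 1277 in AE9a+Meis2, and 6.99 and 13.2 in AE9a. Runx1t1, the gene that gives the ETO part of the fusion, was 21.6, 223 and 218 FPKM in AE+Meis2, 18, 11.2 and 10.3 in AE9a+Meis2, and 26.8 and 23.4 in AE9a. The library labelled AE+Meis2 replicate 1 thus went against its label on both genes, and the log2 differences of the 5 genes and the counts of the family, monocyte and macrophage lists are also given without it. Genes of the odorant receptor, vomeronasal receptor, keratin-associated and beta-defensin families, 1543 in all, showed values above 0 for 84.1% of their number in AE9a+Meis2 replicate 3, and for 72.1% in AE9a replicate 1. That share was between 3.37% and 6.61% in the other 6 libraries. Levels under about 1 FPKM in these 2 libraries carry this extra signal, which averaged 0.461 and 0.597 FPKM over those families.

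The 5 genes belong to unrelated families. Tcea3 encodes a form of the elongation factor TFIIS, which helps stalled RNA polymerase II to resume by stimulating cleavage of the nascent transcript. Gpr141 is an orphan G-protein-coupled receptor known from myeloid cells. Galnt9 is a polypeptide N-acetylgalactosaminyltransferase, an enzyme that starts mucin-type O-glycans, and is known mainly from brain. Arhgef37 is a little-described guanine nucleotide exchange factor of the Dbl type, enzymes that switch on small GTPases such as Rac and Cdc42. Itga1, or CD49a, is the alpha subunit that pairs with beta 1 integrin (Itgb1) to bind collagen and laminin.

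Of the 23997 genes, 12565 reached 1 FPKM in at least 2 libraries and were tested, all 5 chosen genes among them. Tcea3 and Galnt9 passed that filter through the AE9a+Meis2 libraries alone: 0 of the other 5 libraries reached 1 FPKM for either gene. For Itga1, 2 of the other 5 libraries reached it, and for Gpr141 and Arhgef37 all 5 did. In all 5 genes the lowest AE9a+Meis2 library was above the highest of the other libraries, as in 266 of the 12565 tested genes (2.12%). It was at least 2 times as high in FPKM in all 5, a gap found in 25 tested genes (0.199%). The opposite pattern, with AE9a+Meis2 below every other library, was found in 224 genes (1.78%). The selection fixed these counts for the 5 genes, so nothing is read from them.

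**Figure D1:**
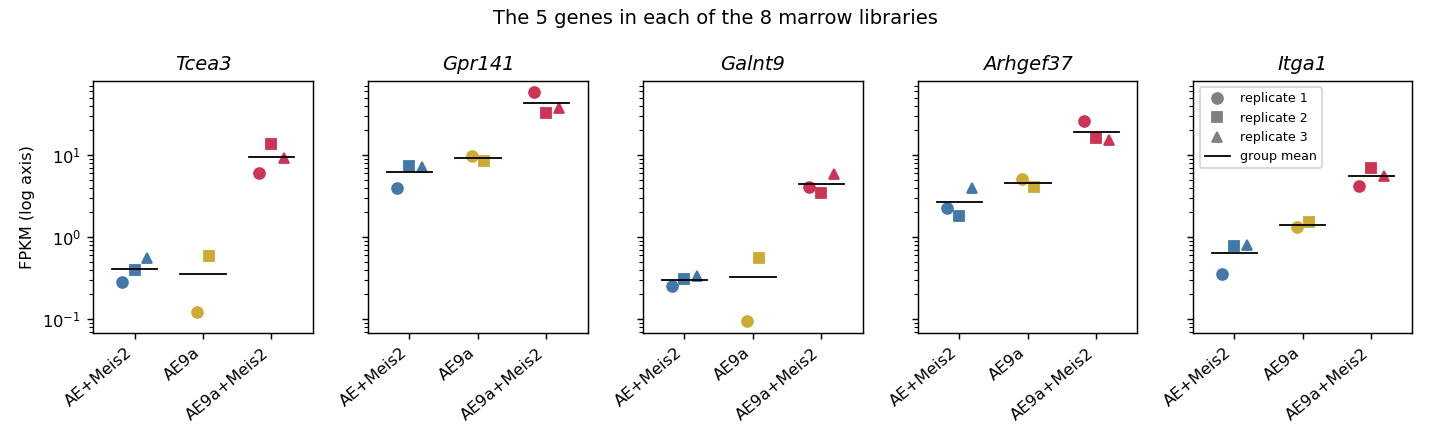
FPKM (log axis) of Tcea3, Gpr141, Galnt9, Arhgef37 and Itga1 in each of the 8 libraries, 1 panel per gene. Symbols mark the replicate and colours the group, and the horizontal line is the group mean. In each panel the 3 AE9a+Meis2 libraries lie above the other 5, and the gap is widest for Tcea3.

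Tcea3 had the widest gap. It was 6.00, 13.4 and 9.09 FPKM in AE9a+Meis2 replicates 1 to 3, against 0.282, 0.397 and 0.550 in AE+Meis2 and 0.121 and 0.579 in AE9a. All 3 AE9a+Meis2 libraries were high, the other 5 were near the floor of the measurement, and the lowest AE9a+Meis2 library was 10.4 times the highest of the others. The mean was 9.51 ± 3.73 FPKM (SD, n = 3) in AE9a+Meis2, 27.2 times the mean of AE9a, 0.350 ± 0.323 (n = 2), and 23.2 times that of AE+Meis2, 0.409 ± 0.134 (n = 3). On the log2(FPKM + 1) scale, which understates changes of low genes, AE9a+Meis2 exceeded AE9a by 2.92 ± 0.35 (SE) and AE+Meis2 by 2.84 ± 0.32.

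The gene lies on the plus strand at chr4:136247936-136274903 (RefSeq, GRCm38.p6), and its basic coding transcript in GENCODE has 11 exons and 1251 bases. No other annotated gene overlaps it. Its nearest neighbour with a value, Asap3, ends 1.36 kb before Tcea3 and stayed at or under 0.509 FPKM in all 8 libraries. E2f2, a cell cycle transcription factor 51.9 kb before Tcea3, was 18.5, 8.41 and 18.4 FPKM in AE+Meis2, 22.9, 38.5 and 40.6 in AE9a+Meis2, and 11.6 and 17.9 in AE9a. Its AE9a+Meis2 libraries also lay above all others, as in 2.12% of all tested genes, while AE+Meis2 and AE9a overlapped. On the far side, Zfp46 and Hnrnpr differed between AE9a+Meis2 and the mean of the other groups by 0.11 and -0.22 on the log2(FPKM + 1) scale.

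The other TFIIS genes were not arranged this way. Tcea1, the form made in nearly all cells, was 62.7, 63.1 and 58.0 FPKM in AE+Meis2, 63.3, 57.8 and 44.4 in AE9a+Meis2, and 52.7 and 54.7 in AE9a. Tcea2 lay between 4.09 and 8.94 FPKM over all 8 libraries, with overlapping groups. So even at its highest, 13.4 FPKM, Tcea3 stayed below Tcea1 in every library, and above Tcea2 in AE9a+Meis2 replicates 2 and 3. Of 36 other tested genes for elongation factors of RNA polymerase II, 15 were higher in AE9a+Meis2 than in the mean of the other groups. Their median log2 difference was -0.05, beside -0.02 over all tested genes. None of the 36 passed limma's test at an adjusted p under 0.05, and 0 had an unadjusted p below that, as 542 of all 12565 tested genes did in this contrast (4.31%), the share to read beside the same count for each list. The most abundant of them, Tceb2 (elongin B), Supt4a, Ssrp1 and Gtf2f1, differed by 0.31, -0.22, -0.12 and 0.02.

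Gpr141 was the most abundant of the chosen genes in AE9a+Meis2. It was 57.7, 32.6 and 37.5 FPKM in AE9a+Meis2 replicates 1 to 3, 3.91, 7.40 and 7.04 in AE+Meis2, and 9.61 and 8.49 in AE9a. It was thus present in every library, with the 3 AE9a+Meis2 libraries well above the rest and the 2 AE9a libraries above the 3 AE+Meis2 libraries. The mean of 42.6 ± 13.3 FPKM (SD, n = 3) in AE9a+Meis2 was 4.71 times that of AE9a, 9.05 ± 0.788 (n = 2), and 6.97 times that of AE+Meis2, 6.12 ± 1.92 (n = 3). The log2(FPKM + 1) differences were 2.08 ± 0.34 (SE) and 2.61 ± 0.30.

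The Gpr141 gene lies on the minus strand at chr13:19749680-19824336 (RefSeq, GRCm38.p6), with 5 exons and 3433 bases in its GENCODE transcript. Its close relative Gpr141b, 16.7 kb away and listed under its older symbol A530099J19Rik, was 0.0834, 0.288 and 0.0912 FPKM in AE+Meis2, 0.556, 0.170 and 1.02 in AE9a+Meis2, and 0.403 and 0.0141 in AE9a. It stayed near the floor, and its groups overlapped. Elmo1, an adaptor for Rac activation 266 kb beyond the start of Gpr141, was between 9.81 and 39.4 FPKM and differed by 0.43 on the log2 scale.

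Because the 5 genes share this separation of groups, the 250 bases before each transcript start in the RefSeq promoter table were searched on both strands for 6 short motifs. Shares are given over the 32851 such windows in the RefSeq table. TGTGGT, bound by RUNX factors, was in 14.05% of windows, and TGACAG, bound by MEIS factors, was in 15.9%. The GATA factor motif AGATAA was in 9.99% of windows and the ETS factor motif AGGAAG was in 29.5%. An E-box, CAGCTG, was in 13% of them and the IRF motif, GAAA repeated after a spacer of NN, in 2.98%. The table had windows for 4 of the 5 genes. The Gpr141 window held 1 RUNX, 2 MEIS and 2 ETS matches. The windows of Tcea3 and of both Galnt9 starts say little about sequence before these genes, because they lie largely or wholly inside the gene as RefSeq or GENCODE annotates it. In the Tcea3 window 22 bases lie before it, and in the Galnt9 windows 0. A match describes letters only, and binding was not measured. The part of the Gpr141 window that lies outside the annotated gene, chr13:19824337-19824507 on the minus strand (171 bases, 29.8% GC), is printed because it is the one with MEIS matches. Capitals mark the first MEIS match and then a run that holds an ETS match overlapping the second MEIS match, both on the opposite strand:
Gpr141: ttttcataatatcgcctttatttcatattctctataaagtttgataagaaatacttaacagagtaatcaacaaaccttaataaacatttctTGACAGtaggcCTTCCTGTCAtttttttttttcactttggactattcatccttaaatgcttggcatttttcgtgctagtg

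Among 42 other tested G-protein-coupled receptors of blood cells, 26 were higher in AE9a+Meis2 than in the mean of the other groups, with a median log2 difference of 0.22. None passed limma's adjusted test, and 4 had an unadjusted p under 0.05. The chemokine receptor Cxcr4, which holds leukocytes in marrow, was 409, 137 and 114 FPKM in AE9a+Meis2 and between 51.9 and 197 in the others. Ccr2, the receptor by which monocytes leave marrow, was 87.3, 96.9 and 142 against 23.3 to 97.2. The neutrophil receptor Cxcr2 and the formyl peptide receptor Fpr2 had overlapping groups too, with log2 differences of -1.14 and 0.80.

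Galnt9 resembled Tcea3 in being near the floor outside AE9a+Meis2. It was 4.04, 3.46 and 5.90 FPKM in AE9a+Meis2 replicates 1 to 3, 0.253, 0.308 and 0.332 in AE+Meis2, and 0.0941 and 0.555 in AE9a. The lowest AE9a+Meis2 library was 6.25 times the highest of the others. Means were 4.47 ± 1.27 FPKM (SD, n = 3) in AE9a+Meis2, 0.324 ± 0.326 (n = 2) in AE9a and 0.298 ± 0.0404 (n = 3) in AE+Meis2, ratios of 13.8 and 15.0. On the log2(FPKM + 1) scale these were differences of 2.04 ± 0.29 (SE) and 2.05 ± 0.26. The gene lies on the plus strand at chr5:110544032-110621383 (RefSeq, GRCm38.p6). GENCODE lists 2 basic coding transcripts, of 2883 bases with 11 exons and of 1541 bases. A table with 1 value per gene does not say which of them was read. Its neighbours Fbrsl1, Noc4l, Ddx51 and Ep400 differed by 0.25, -0.01, 0.01 and -0.03 on the log2 scale.

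Other enzymes that start O-glycans were much more abundant than Galnt9. Galnt1 was 62.6, 68.4 and 54.1 FPKM in AE9a+Meis2, 83.9, 202 and 60.5 in AE+Meis2, and 69.9 and 79.0 in AE9a. Galnt6 was 29.6, 27.4 and 24.4 FPKM in AE9a+Meis2, with 30.2 in AE9a replicate 1 and 4.26 in AE+Meis2 replicate 3 as the extremes of the others. Both had overlapping groups, as did Galnt2, Galnt3, Galnt4, Galnt7, Galnt10, Galnt11 and Galnt12. Galnt5, Galnt13, Galnt14, Galnt15, Galnt16 and Galnt18 stayed at or under 0.394 FPKM in every library. Of 16 other tested genes of O-glycan synthesis, 11 were higher in AE9a+Meis2, with a median log2 difference of 0.23. None passed the adjusted test by limma, and 1 had an unadjusted p under 0.05. C1galt1c1 (Cosmc), the chaperone of the next enzyme in the pathway, C1galt1, was the 1 gene besides Galnt9 with AE9a+Meis2 above all other libraries, and none lay below. It was 26.4, 61.0 and 30.6 FPKM in AE9a+Meis2, 14.2, 10.2 and 25.6 in AE+Meis2, and 14.2 and 19.1 in AE9a. C1galt1 itself was 17.0, 19.7 and 17.3 FPKM in AE9a+Meis2, within the range of 9.27 to 40.9 of the others. Gcnt1, a branching enzyme of O-glycans, differed by -0.38 on the log2 scale.

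Arhgef37 was 26.1, 15.9 and 15.1 FPKM in AE9a+Meis2 replicates 1 to 3, 2.23, 1.82 and 3.98 in AE+Meis2, and 5.09 and 4.04 in AE9a. As with Gpr141, every library had signal, replicate 1 of AE9a+Meis2 was the highest, and both AE9a libraries were above the AE+Meis2 libraries. The mean was 19.0 ± 6.13 FPKM (SD, n = 3) in AE9a+Meis2, 4.57 ± 0.745 (n = 2) in AE9a and 2.68 ± 1.15 (n = 3) in AE+Meis2, ratios of 4.17 and 7.11. The log2(FPKM + 1) differences were 1.81 ± 0.35 (SE) and 2.45 ± 0.31. It lies on the minus strand at chr18:61491657-61536928 (RefSeq, GRCm38.p6), with 13 exons and 5429 bases in its GENCODE transcript and no overlapping gene. Csnk1a1, a casein kinase 17.3 kb away, was far more abundant and differed by -0.12.

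The exchange factors nearest to Arhgef37 in their domains did not have this pattern. Dnmbp was 7.12, 4.75 and 4.61 FPKM in AE9a+Meis2, 3.14, 5.26 and 7.04 in AE+Meis2, and 5.48 and 2.08 in AE9a. Arhgef38 was listed at 0 in 6 libraries, and AE9a+Meis2 replicate 3 had 0.347 and AE9a replicate 1 had 0.301. Of 43 other tested exchange factors of the Dbl type, 31 were higher in AE9a+Meis2, with a median log2 difference of 0.16. None passed limma's adjusted test, and 4 had an unadjusted p under 0.05. Arhgef10l was the 1 other gene whose AE9a+Meis2 libraries lay above all the rest, and Arhgef40 the 1 whose libraries lay below. Arhgef10l was 9.16, 9.87 and 8.40 FPKM in AE9a+Meis2, 2.19, 1.30 and 2.11 in AE+Meis2, and 4.95 and 2.87 in AE9a. Arhgef40 was 0.282, 0.902 and 0.980 FPKM in AE9a+Meis2, 2.58, 2.39 and 2.11 in AE+Meis2, and 1.06 and 1.39 in AE9a. The most abundant exchange factors of the marrow, Arhgef1, Vav1, Arhgef2 and Akap13, differed by 0.03, 0.06, -0.17 and -0.17.

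**Figure D2:**
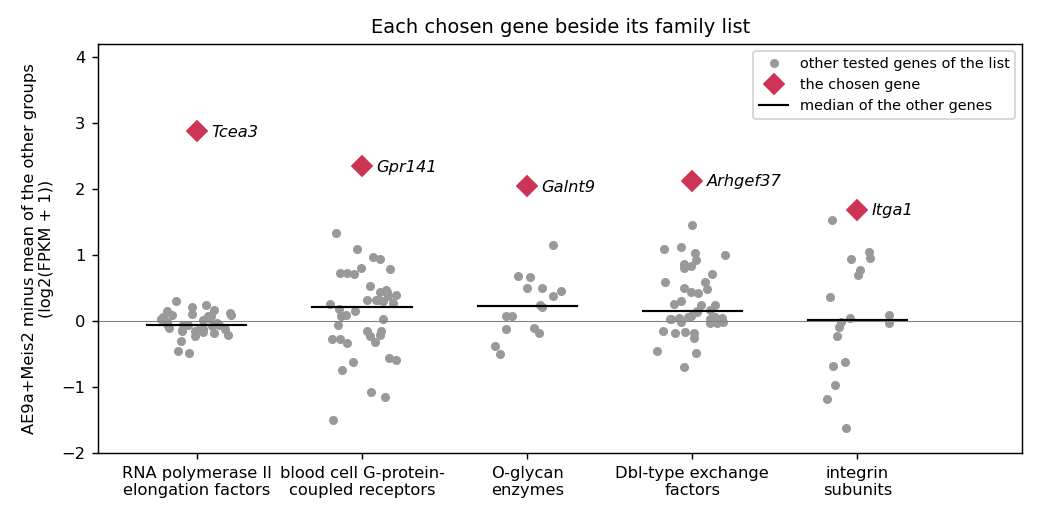
Difference in mean log2(FPKM + 1) between AE9a+Meis2 and the mean of the other groups for the tested genes of 5 family lists. Diamonds are Tcea3, Gpr141, Galnt9, Arhgef37 and Itga1, each in its own list, grey points the other genes, and black lines their medians, which run from -0.05 to 0.23. Each chosen gene is the highest point of its list, a position that its selection on this difference favoured.

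Itga1 had the narrowest gap of the 5. It was 4.13, 6.84 and 5.48 FPKM in AE9a+Meis2 replicates 1 to 3, 0.359, 0.776 and 0.798 in AE+Meis2, and 1.31 and 1.51 in AE9a. The 3 groups occupied 3 separate ranges, with AE9a in the middle. Means were 5.48 ± 1.35 FPKM (SD, n = 3) in AE9a+Meis2, 1.41 ± 0.142 (n = 2) in AE9a and 0.644 ± 0.247 (n = 3) in AE+Meis2, ratios of 3.89 and 8.51. The log2(FPKM + 1) differences were 1.41 ± 0.28 (SE) and 1.97 ± 0.25.

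Itga1 lies on the minus strand at chr13:114958079-115101964 (RefSeq, GRCm38.p6), with 29 exons and 10967 bases in its GENCODE transcript. Pelo, a ribosome rescue factor, lies inside it on the same strand. Pelo was 9.25, 10.7 and 6.92 FPKM in AE9a+Meis2, 7.83, 4.50 and 6.93 in AE+Meis2, and 7.66 and 8.28 in AE9a, so its groups overlapped. The predicted gene Gm49395 shares the strand and the antisense gene Gm10734 overlaps as well. Neither has a row of its own, the library kit named in the labels does not mark strand, and the sources used here do not say how reads shared with them were assigned. The 250 bases before the start, chr13:115101965-115102214 on the minus strand (57.6% GC), are printed because they hold 1 ETS match and 1 E-box, marked in capitals, the ETS match on the opposite strand. They held no RUNX or MEIS match:
Itga1: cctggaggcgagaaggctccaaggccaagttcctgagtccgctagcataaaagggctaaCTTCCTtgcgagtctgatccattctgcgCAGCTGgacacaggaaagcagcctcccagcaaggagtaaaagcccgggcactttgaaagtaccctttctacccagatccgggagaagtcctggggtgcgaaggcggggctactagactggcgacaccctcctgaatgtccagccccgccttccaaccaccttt

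Its partner subunit Itgb1 was abundant everywhere, at 87.3, 106 and 84.4 FPKM in AE9a+Meis2, 112, 176 and 76.9 in AE+Meis2, and 93.7 and 110 in AE9a. The other alpha subunits of collagen receptors were low. Itga2, the next gene on the chromosome 26.0 kb away, was 0.0597, 0.380 and 0.647 FPKM in AE9a+Meis2, and reached 1.86 in the library labelled AE+Meis2 replicate 1. Itga10 and Itga11 stayed at or under 0.419 and 0.248 FPKM in all libraries. Itga1 was the most abundant of the 4 collagen-binding alpha subunits in every library except the one labelled AE+Meis2 replicate 1, where Itga2 was higher.

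Of 18 other tested integrin subunits, 9 were higher in AE9a+Meis2 than in the mean of the other groups, with a median log2 difference of 0.03. None passed limma's adjusted test, and 1 had an unadjusted p under 0.05. Against AE9a alone 11 were higher (median 0.23), and 4 had an unadjusted p under 0.05 by limma, beside 3.06% of all tested genes. Between AE+Meis2 and AE9a+Meis2, 10 were higher in AE+Meis2 (median 0.02), and 0 had such a p, beside 7.15%. None passed the adjusted test in either. Itga5, the fibronectin receptor subunit, was the 1 other tested integrin with AE9a+Meis2 above all other libraries, at 17.3, 14 and 15.4 FPKM in AE9a+Meis2, 10.5, 3.25 and 13.9 in AE+Meis2, and 12.6 and 8.48 in AE9a. Itga4, which pairs with Itgb1 or Itgb7 in homing receptors, was the 1 that lay below them, at 50.8, 60.4 and 48.3 FPKM in AE9a+Meis2, 62.0, 180 and 69.8 in AE+Meis2, and 83.3 and 74.0 in AE9a. Itga8, too low for the test, lay above the others as Itga5 did: AE9a+Meis2 libraries held 0.827, 0.619 and 0.979 FPKM and the highest of the others 0.275. The myeloid subunits Itgam and Itgb2 and the homing subunit Itgb7 had overlapping groups, with log2 differences of 1.53, 0.77 and 0.95. Among 10 tested genes for collagens, laminins and the collagen receptor Lair1, 5 were higher, with a median difference of 0.03, none passed the adjusted test by limma and 0 had an unadjusted p under 0.05. Lamc1, a laminin chain that Itga1 with Itgb1 can bind as part of the trimer, was 19.6, 17.1 and 22.1 FPKM in AE9a+Meis2 and between 2.07 and 22.8 in the others.

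**Figure D3:**
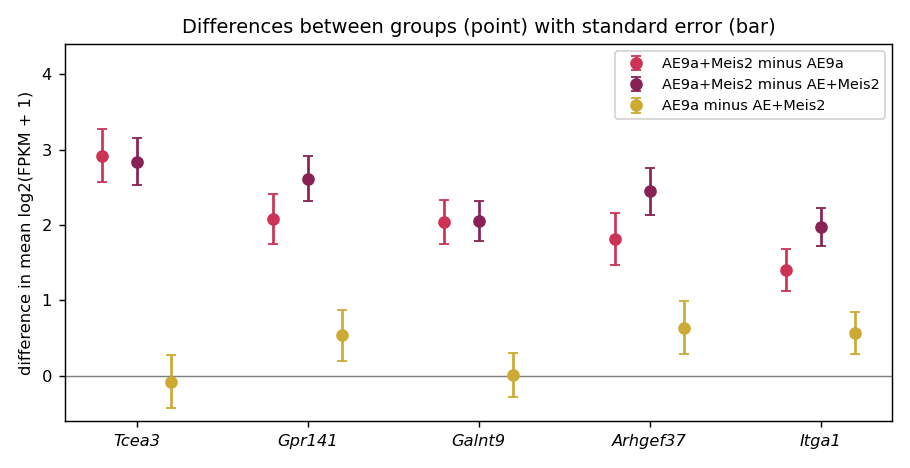
Differences in mean log2(FPKM + 1) between groups (points) with their standard errors (bars) from the limma fit, for each of the 5 genes. The 2 differences from AE9a+Meis2 run from 1.41 to 2.92. The difference between AE9a and AE+Meis2 is near 0 for Tcea3 and Galnt9 and between 0.54 and 0.64 for Gpr141, Arhgef37 and Itga1.

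The difference between AE9a and AE+Meis2 was not itself used in the selection. The selection did need both groups to lie below AE9a+Meis2, which limits how far they can differ. The counts, intervals and p-values of this comparison are therefore given as a description. Both AE9a libraries lay above all 3 AE+Meis2 libraries for Gpr141, Arhgef37 and Itga1, an order found in 1088 of all tested genes (8.66%), and the groups overlapped for Tcea3 and Galnt9. The ratio of means, AE9a over AE+Meis2, was 1.48 for Gpr141, 1.71 for Arhgef37 and 2.19 for Itga1. In limma's test of this comparison 4 genes of the table were called (0.0318%), and 752 had an unadjusted p under 0.05 (5.98%). Gpr141, Arhgef37 and Itga1 were not among those called. The difference, AE9a minus AE+Meis2, was 0.54 ± 0.34 (SE) for Gpr141, with a 95% interval of -0.25 to 1.32 and adjusted p = 0.95 by limma. Without the library labelled AE+Meis2 replicate 1 it was 0.29, with limma adjusted p = 0.86. Arhgef37 differed by 0.64 ± 0.35 (-0.18 to 1.45, limma adjusted p = 0.95), and by 0.56 without that library. Itga1 differed by 0.56 ± 0.28 (-0.09 to 1.22, limma adjusted p = 0.91), and by 0.43 without it. A p above the threshold does not show equal levels. Tcea3 and Galnt9, under 1 FPKM in all 5 of these libraries, differed by -0.08 ± 0.35 and 0.01 ± 0.29, and at such levels a pseudocount of 1 leaves no room for a test, so no p is given.

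The differences between AE9a+Meis2 and AE+Meis2 without the library labelled AE+Meis2 replicate 1 were 2.77, 2.37, 2.03, 2.38 and 1.84 for Tcea3, Gpr141, Galnt9, Arhgef37 and Itga1. The AE+Meis2 means were then 0.473, 7.22, 0.320, 2.90 and 0.787 FPKM. The highest of the other 5 libraries was an AE9a library for each gene, so leaving out AE+Meis2 replicate 1 left the gap as it was. The separation itself was fixed by the selection.

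In the contrasts that selected the genes, calls in the table were few. Between AE9a+Meis2 and AE9a 6 genes were called (0.0478%), between AE+Meis2 and AE9a+Meis2 5 genes (0.0398%), and between AE9a+Meis2 and the mean of the other groups 6 genes (0.0478%). The selection used these contrasts, so no call is given for the chosen genes. Ranked by the gap on the log2(FPKM + 1) scale between the lowest AE9a+Meis2 library and the highest of the other 5, Tcea3 was rank 3 with a gap of 2.15. Gpr141 was rank 4 with 1.66, Galnt9 rank 7 with 1.52, Arhgef37 rank 9 with 1.40 and Itga1 rank 15 with 1.03. Meis2, a transgene of these samples, was rank 2 with 2.87. The ranks near theirs, looked up after the values were seen, held the apolipoprotein gene Apoc2 at 6, Klf4 at 8, Irf8 at 10 and the chemokine gene Ccl9 at 12. The coagulation factor gene F10 at rank 16, with a gap of 1.00, was just outside Itga1.

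**Figure D4:**
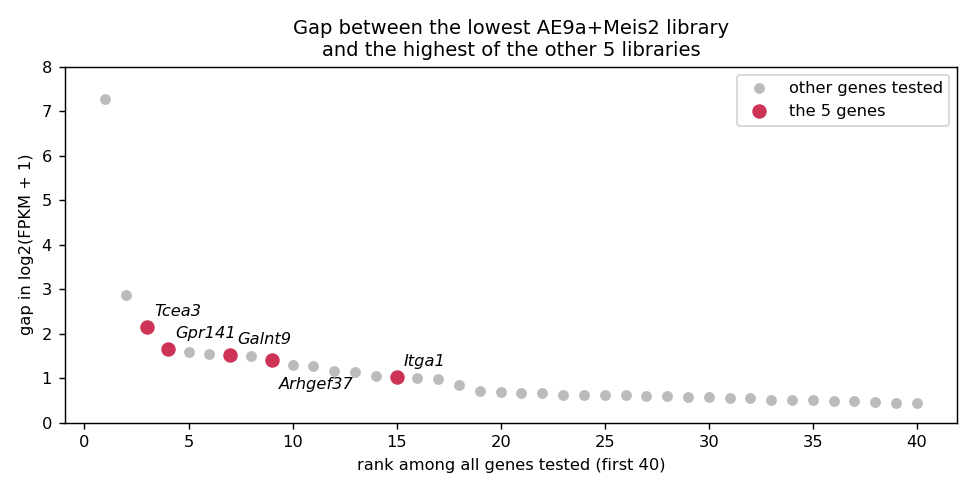
Gap in log2(FPKM + 1) between the lowest AE9a+Meis2 library and the highest of the other 5 libraries, for the 40 tested genes with the largest gaps, in order of rank. Red points are Tcea3, Gpr141, Galnt9, Arhgef37 and Itga1, which had ranks 3, 4, 7, 9 and 15, and grey points are other genes.

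Within the AE9a+Meis2 group the 5 genes did not rise and fall as 1 block. Gpr141 and Arhgef37 were highest in replicate 1, Tcea3 and Itga1 in replicate 2, and Galnt9 in replicate 3. Tcea3 and Itga1 had the same order over the 3 libraries, the 1 pair of the 10 that did. The coefficient of variation in AE9a+Meis2 ran from 24.7% for Itga1 to 39.2% for Tcea3. The next ratios leave out the 2 libraries with extra low-level signal. AE9a+Meis2 replicates 1 and 2 averaged 16.8, 5.32, 6.77, 5.19 and 3.63 times AE9a replicate 2 for Tcea3, Gpr141, Galnt9, Arhgef37 and Itga1. The selection fixed the direction of these ratios, so only their size is described. AE9a replicate 1, a library left out of them, was the lowest of all 8 for Tcea3 and Galnt9.

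The genes most like each of them were found by Pearson's r of log2(FPKM + 1) over the 8 libraries among 9827 named genes that reached 5 FPKM in at least 1 library. With 3 high and 5 low libraries, such an r mostly measures the shared separation of groups and is given without a p. Gpr141 and Arhgef37 were both most like Irf8, a transcription factor of monocyte and dendritic cell development, with r of 0.98 and 0.99. Irf8 was 94.6, 59.2 and 50.2 FPKM in AE9a+Meis2, 8.14, 10.2 and 16.0 in AE+Meis2, and 19.9 and 16.8 in AE9a. Like these 2 genes it was highest in AE9a+Meis2 replicate 1. The adaptor gene Apba1 followed for both, with r of 0.96 for Gpr141 and 0.99 for Arhgef37. The third gene was Zeb2os, transcribed next to Zeb2, with r of 0.98 for Arhgef37, and for Gpr141 it was Arhgef37 itself, with r of 0.97.

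Galnt9 was most like Tcea3, Klf4 and Matn1, each with r of 0.96. Klf4, a zinc finger factor of monocytes, was 38.4, 30.0 and 45.2 FPKM in AE9a+Meis2, 3.91, 4.96 and 9.32 in AE+Meis2, and 7.25 and 10.01 in AE9a, highest in replicate 3 as Galnt9 was. Matn1, which encodes the cartilage matrix protein matrilin, was 6.99, 4.02 and 11.5 FPKM in AE9a+Meis2 and at most 1.28 in the others. Tcea3 was most like Tmem229b (r of 0.99), then Galnt9 and Itga1 (0.96 each). Itga1 was most like Rnd3, an atypical small GTPase (0.98), then Tcea3 (0.96) and Tmem229b (0.95). Rnd3 was 13.9, 18.6 and 13.7 FPKM in AE9a+Meis2, 3.10, 2.99 and 4.86 in AE+Meis2, and 6.42 and 5.78 in AE9a.

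Leaving out the library labelled AE+Meis2 replicate 1, the family lists read as follows, in a comparison added after the values were seen. For the elongation factors 13 of 36 were higher in AE9a+Meis2, for the receptors 26 of 42, for the O-glycan genes 10 of 16, for the exchange factors 28 of 43, for the integrins 9 of 18 and for the collagens and laminins 5 of 10. The median log2 differences were -0.08, 0.14, 0.34, 0.07, 0.05 and 0.19 in that order.

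Neighbouring genes mostly did not share the pattern. Over 31 neighbours with a value, 18 were tested, and 1 of them (E2f2) lay without overlap above the other libraries, beside 2.12% of all tested genes. Their differences between AE9a+Meis2 and the mean of the other groups ran from -0.22 to 1.21 on the log2 scale. The median was 0.22, beside -0.02 over all tested genes. The largest were those of Emb (1.21), E2f2 (1.15) and Aoah (1.05), and the lowest was that of Hnrnpr (-0.22). Some of these neighbours lie far off, Emb 2119 kb from Itga1 and Aoah 970 kb from Gpr141.

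Which cells of the marrow held the 5 RNAs cannot be read from bulk values, so the markers of cells known to express them were set beside them. The marker lists were chosen with earlier results of these data known, so their counts are given as a description. Monocyte markers were mostly higher in AE9a+Meis2. Of 12 listed genes, all tested, 10 were higher in AE9a+Meis2 than in the mean of the other groups, with a median log2 difference of 1.03. Cd14 and Cx3cr1 were the 2 that were not, with differences of -0.11 and -0.32. By limma 0 of the 12 passed the adjusted test, and 8 had an unadjusted p under 0.05, beside 4.31% of all tested genes. For Irf8, Klf4, F13a1, Ly6c1 and Ms4a6c, 5 in all, AE9a+Meis2 lay above all other libraries, beside 2.12% of all tested genes. Without the library labelled AE+Meis2 replicate 1, which was tried after the values were seen, 10 were higher, the median was 1.08 and 5 lay above all others. F13a1, a transglutaminase subunit of monocytes, was 867, 473 and 308 FPKM in AE9a+Meis2, 207, 92.1 and 263 in AE+Meis2, and 229 and 151 in AE9a. Irf8 and Klf4 are also 2 of the genes most like the chosen ones, so these 2 observations are not independent. The summed monocyte markers were 1442 to 3709 FPKM in AE9a+Meis2, 442 to 1471 in AE+Meis2, and 752 to 868 in AE9a, so the sums of the first 2 groups met. None of the 12 was at 0 in all 3 AE9a+Meis2 libraries. Whether the share of monocyte-like cells had a part in the values of Gpr141, Arhgef37 or the other 3 genes was not tested.

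Markers of resident macrophages went the other way. Of 11 tested genes, 3 were higher in AE9a+Meis2, with a median log2 difference of -1.54, 0 passed limma's adjusted test and 7 had an unadjusted p under 0.05, beside 4.31% of all tested genes. In C1qb, Mrc1 and Spic, 3 in all, AE9a+Meis2 lay below all other libraries, beside 1.78% of all tested genes. Leaving out the library labelled AE+Meis2 replicate 1, 4 were higher, the median was -1.30 and 3 lay below. Their summed level was 66.0 to 205 FPKM in AE9a+Meis2, 125 to 469 in AE+Meis2 and 170 to 229 in AE9a. The complement genes C1qa and C1qb differed by -1.65 and -2.08, while Emr1 (F4/80), also made by monocytes, differed by 0.80.

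Itga1 is known from natural killer and other innate lymphoid cells, tissue-resident T cells, stroma and smooth muscle. Of 8 tested markers of natural killer and innate lymphoid cells, 4 were higher in AE9a+Meis2, with a median difference of -0.01. None passed limma's adjusted test, and 0 had an unadjusted p under 0.05. Their sum was 12 to 61.8 FPKM in AE9a+Meis2, 22.7 to 93.6 in AE+Meis2, and 19.3 to 25.9 in AE9a. Ncr1, the most specific of them, was 0.0372, 0.183 and 3.11 FPKM in AE9a+Meis2 replicates 1 to 3, where Itga1 was 4.13, 6.84 and 5.48. Replicate 3, the 1 with clear Ncr1 signal, also carried the extra low-level signal, and whether such cells had a part in the Itga1 values was not tested. T cell markers were higher for 2 of 11 (median -0.11), and Cd3e, 1.84, 2.68 and 6.51 FPKM in AE9a+Meis2, lay between 2.38 and 5.92 in the others. Markers of stroma and endothelium were higher for 1 of 5 (median -0.62), with a sum of 22.6 to 28.0 FPKM in AE9a+Meis2, 35.6 to 46.9 in AE+Meis2 and 27.6 to 43.1 in AE9a.

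Tcea3 is known from skeletal muscle and other solid tissues and Galnt9 from neurons. Skeletal muscle markers summed to 10.9 to 15.2 FPKM in AE9a+Meis2, 8.50 to 22.6 in AE+Meis2 and 9.49 to 10.3 in AE9a, and 7 of the 12 stayed under 1 FPKM in each AE9a+Meis2 library. Neuron and glia markers summed to 24.4 to 46.9 FPKM in AE9a+Meis2, 31.2 to 74.7 in AE+Meis2 and 38.5 to 40.3 in AE9a. Of those 12, 9 stayed under 1 FPKM in each AE9a+Meis2 library, and the neuronal genes Syt1 and Nefl were listed at 0 in AE9a+Meis2 replicates 1 and 2, where Galnt9 was 4.04 and 3.46. The tested members of these lists were higher in AE9a+Meis2 for 2 of 5 in muscle and 2 of 4 in nerve. In the T cell, stroma, muscle and nerve lists none passed the adjusted test by limma, and 0, 1, 0 and 0 genes had an unadjusted p under 0.05.

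The other marker lists are given by counts of tested genes higher in AE9a+Meis2 than in the mean of the other groups. They were 5 of 9 for B cells, 5 of 12 for mast cells and basophils, 0 of 3 for eosinophils, 5 of 9 for dendritic cells and 5 of 11 for the neutrophil lineage. For megakaryocytes and platelets it was 1 of 9, for erythroid cells 2 of 10, and for stem and progenitor cells 3 of 9. None of the genes on these 8 lists passed limma's adjusted test, and the counts with an unadjusted p under 0.05 were 0, 1, 0, 2, 0, 3, 0 and 1 in the same order. AE9a+Meis2 lay below all other libraries in 2 of the 9 megakaryocyte genes and 1 of the 9 stem cell genes, beside 1.78% of all tested genes. In no other tested gene of these lists did it lie wholly above or below. The largest drop among the megakaryocyte genes was that of Pf4, -2.37 on the log2 scale. The summed level of none of the 15 lists put all 3 AE9a+Meis2 libraries above, or all 3 below, the other 5. Erythroid, neutrophil, mast cell and monocyte genes were present in each library, and whether these markers single out marrow was not tested.

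**Figure D5:**
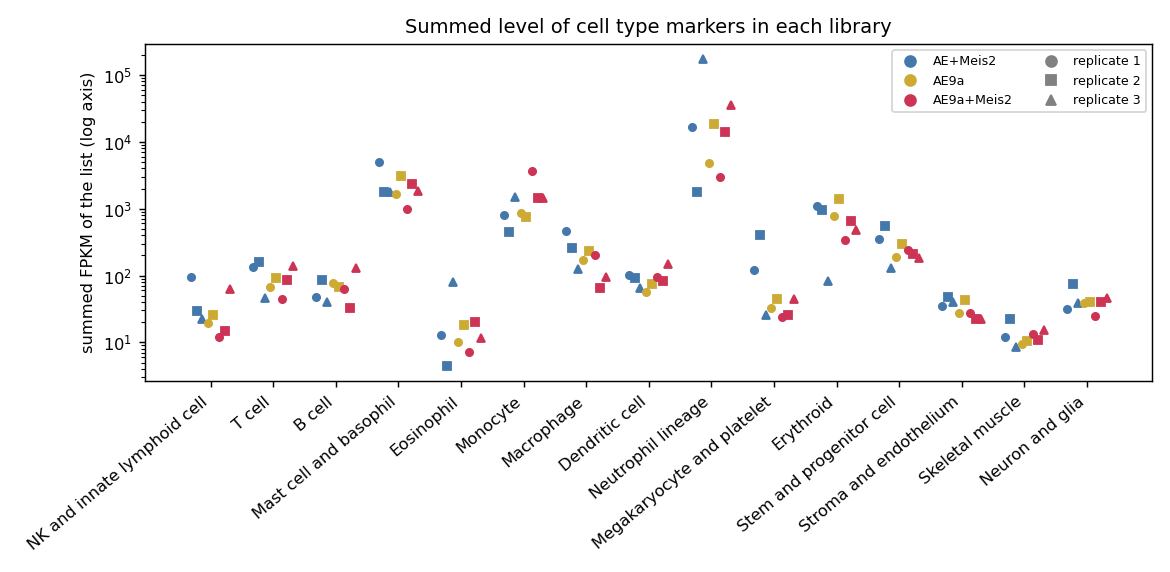
Summed FPKM (log axis) of the markers of 15 cell types in each library. Colours mark the group and symbols the replicate. In the monocyte list AE9a+Meis2 runs from 1442 to 3709 FPKM against 442 to 1471 and 752 to 868 in the other groups, and in no list do its 3 libraries lie wholly above or below the rest.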

How the data were processed

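RNA-seq of 8 marrow libraries was deposited by the authors as 1 table of FPKM for 23997 genes, unlike counts already divided by transcript length and library depth. Per the submitters' processing notes, the tools were TopHat, Cufflinks and Cuffdiff and the mouse build was mm10, and per the labels' protocols libraries were made with an Illumina TruSeq RNA kit. The sources used here do not give tool versions, annotation or the scaling of libraries. Sample titles gave the groups and replicate numbers.

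The depth behind the values is unknown, so counting intervals could not be given. A rough estimate from low values put relative depth between 12.1% and 100% of the deepest library, AE9a+Meis2 replicate 2, with AE9a replicate 1 the shallowest. In that estimate the most common ratio held 3.44% to 8.34% of the genes compared.

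Values were taken to log2(FPKM + 1). The 12565 genes at 1 FPKM or more in at least 2 libraries were tested. A model with 1 mean per group was fitted to the 8 libraries with limma 3.58.1 (R 4.3.3), using an intensity trend in the empirical Bayes step, two-sided tests and Benjamini-Hochberg adjustment over all genes tested, at a threshold of 0.05. The fit was tested on simulated data. The remaining values were computed with Python 3.11.15, pandas 2.3.3 and NumPy 2.4.6, and plots with matplotlib 3.10.9.

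The genes, the 6 family lists and the 15 marker lists were chosen with earlier results of these data known. Named genes were the 5 genes, their paralogs, up to 4 of the most abundant genes of each list, the 3 genes most like each by Pearson's r (predicted genes, small RNAs and receptor segments left out) and the 3 nearest genes on each side. Genes without overlap and those near the 5 in the ranking of gaps were named after their values were seen. Positions and promoter sequences came from RefSeq on GRCm38.p6, the assembly of mm10, and exon counts from GENCODE. Alternatives were other pseudocounts, filters, scalings, library weights, a replicate block and leaving out libraries.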

Additional observations from a re-analysis of the deposited data

How the results depend on the processing

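In the 3 contrasts with AE9a+Meis2, the differences of Tcea3, Gpr141, Galnt9, Arhgef37 and Itga1 kept their direction under each alternative run. Where libraries were left out, the selection had fixed that direction, so nothing is read from it. A pseudocount of 0.1 moved those of the low genes by over 1.5 times against AE9a, to 4.56 for Tcea3 and 3.64 for Galnt9. With 1231 small RNA entries left out and the rest rescaled, the median of all genes tested moved to 0.27 for AE9a minus AE+Meis2, 0.18 for AE9a+Meis2 minus AE+Meis2 and -0.10 for AE9a+Meis2 minus AE9a. Between AE+Meis2 and AE9a the near-zero differences changed sign. Tcea3, 0.08, became -0.014 with small RNAs left out, -0.039 with library weights, -0.17 without AE9a replicate 1 and -0.17 without the 2 libraries with extra low-level signal, and it ranged from -0.17 to 0.33 with 1 library left out. Galnt9, -0.01, became 0.15 with a pseudocount of 0.1, 0.21 with quantile scaling, 0.02 without AE+Meis2 replicate 1 and 0.25 without AE9a replicate 2, and it ranged from -0.26 to 0.25 with 1 library left out. For AE9a minus AE+Meis2, Gpr141 (0.54) ranged from 0.29 without AE+Meis2 replicate 1 to 0.98 with library weights, Arhgef37 (0.64) from 0.47 to 0.94, and Itga1 (0.56) from 0.28 with quantile scaling to 1.08 with a pseudocount of 0.1. Their lowest limma adjusted p over the alternatives were 0.21, 0.25 and 0.23, each with library weights. Depth limits Tcea3 and Galnt9 outside AE9a+Meis2, where they lie under 1 FPKM.

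Counts of called genes moved more, and the cause was not tested. Between AE9a+Meis2 and AE9a the 6 became 13 with library weights (whose estimation stopped before converging), 3 without the 2 libraries with extra low-level signal, and 2 to 9 with 1 library left out. Between AE+Meis2 and AE9a+Meis2 the 5 (4 higher, 1 lower) became 12 (3 higher, 9 lower) with small RNAs left out, 1583 with library weights, and 6 to 23 with 1 library left out, the most without AE+Meis2 replicate 3. Between AE+Meis2 and AE9a the 4 (3 higher, 1 lower) became 1 with no filter, 3 (all higher) with median centring, 84 with library weights, 2 with only the libraries compared, and 1 to 10 with 1 left out. With small RNAs left out limma called 0, with 856 at an unadjusted p under 0.05. Against the mean of the other groups the 6 (2 higher, 4 lower) became 12 (9 higher, 3 lower) with small RNAs left out, 459 with library weights, 3 without the 2 libraries with extra signal, and 5 to 23 with 1 left out. A fit with only the libraries compared does not apply to that contrast. Same-numbered libraries of different groups had deviations that correlated between -0.03 and 0.13, so the numbers were not taken to pair them. With the replicate block limma called 2 genes between AE9a+Meis2 and AE9a, and 0 between AE+Meis2 and AE9a, with 688 at an unadjusted p under 0.05.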
